A study of Mus musculus with 27 samples.

Results

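Enhancers and promoters that were acetylated in fetal blood progenitors were set against the H3K4me1 that fetal blood stem cells already carried. The members were 50858 H3K27ac peaks of mouse fetal hematopoietic progenitor cells (HPC) and 231188 H3K4me1 peaks of fetal hematopoietic stem cells (HSC). An H3K27ac peak that shared 1 bp or more with an HSC H3K4me1 peak is called marked, and any other H3K27ac peak is called unmarked. An HSC H3K4me1 peak that shared no base with an HPC H3K27ac peak is called H3K4me1 only. Marked peaks numbered 38198 of 50858 (75.1%) and unmarked peaks 12660. Acetylated H3K4me1 peaks numbered 38525 of 231188 (16.7%), and H3K4me1-only peaks 192663.

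Both cell types came from mice of the B6 strain at E16.5, a day of fetal life, and 3 libraries of each were pooled by the authors into 1 peak list. These were 6 of the 27 libraries of the series, which held 24 ChIP and 3 input libraries, and peaks of the other lists came from the same cell types at the same day or at 8 weeks of age (adult). The cells were sorted and fixed, and chromatin bound by an antibody was cut and tagged by the Tn5 transposase (ChIPmentation). The sources used here do not name the organ, the sorting gates or whether libraries came from separate animals. With 1 pooled list per group there is no spread between replicates, so no p-value is given, and every interval below is a 95% interval for counting error only. Read depth is unknown, and a peak that was not called is not the same as a mark that was absent. A peak list of pooled cells also cannot tell a mark in fewer cells from less of it in each cell.

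H3K4me1 is a histone methylation placed on enhancers and on the shoulders of active promoters, where the start itself carries H3K4me3 instead. H3K27ac is an acetylation of active enhancers and promoters. Enhancers with H3K4me1 and without H3K27ac are often called primed, and stem cells are known for carrying such enhancers near genes of their later lineages. H3K27me3, the mark of Polycomb, lies over silent developmental genes, where it can sit beside H3K4me1.

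The 2 marks met in different ways at different promoters, and the promoter sequences of named genes show this. For 17491 genes RefSeq gave 21262 promoter windows on GRCm38.p6, and below are the 250 bases before the start, 5′ to 3′, with CpG dinucleotides in capitals. Runx1, a transcription factor required to make blood stem cells, has 2 promoters in the table. The proximal one (chr16:92697330-92697579, minus strand) was acetylated and had HSC H3K4me1 only in its flanks, meaning within 1 kb outside the window, while the distal one (chr16:92826075-92826324, minus strand) carried both marks. Ikzf1, which encodes the lymphoid regulator Ikaros, likewise had an acetylated promoter with no H3K4me1 within 1 kb (chr11:11685675-11685924, plus strand) and another with both marks (chr11:11689927-11690176, plus strand).
Runx1 proximal: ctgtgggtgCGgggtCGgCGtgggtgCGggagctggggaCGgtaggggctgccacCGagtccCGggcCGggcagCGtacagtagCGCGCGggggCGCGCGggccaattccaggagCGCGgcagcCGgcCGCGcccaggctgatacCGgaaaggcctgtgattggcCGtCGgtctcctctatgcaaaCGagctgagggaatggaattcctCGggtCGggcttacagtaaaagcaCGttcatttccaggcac
Runx1 distal: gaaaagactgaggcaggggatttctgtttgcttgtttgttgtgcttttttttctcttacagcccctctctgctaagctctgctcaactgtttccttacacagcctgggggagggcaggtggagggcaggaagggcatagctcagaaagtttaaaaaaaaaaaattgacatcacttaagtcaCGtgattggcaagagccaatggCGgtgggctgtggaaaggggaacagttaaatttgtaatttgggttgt
Ikzf1 upstream: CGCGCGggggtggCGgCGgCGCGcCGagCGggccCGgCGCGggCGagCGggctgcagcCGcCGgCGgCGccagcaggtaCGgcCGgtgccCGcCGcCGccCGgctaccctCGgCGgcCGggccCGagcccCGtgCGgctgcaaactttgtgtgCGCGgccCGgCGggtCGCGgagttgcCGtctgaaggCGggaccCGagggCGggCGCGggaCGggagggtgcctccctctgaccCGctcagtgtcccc
Ikzf1 downstream: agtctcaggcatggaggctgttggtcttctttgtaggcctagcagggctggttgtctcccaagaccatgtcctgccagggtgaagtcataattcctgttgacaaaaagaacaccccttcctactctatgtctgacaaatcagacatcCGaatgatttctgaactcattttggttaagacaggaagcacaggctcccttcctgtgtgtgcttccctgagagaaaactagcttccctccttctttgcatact

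The promoters without H3K4me1 over the window held 27 CpG in Runx1 and 44 in Ikzf1, and those with both marks held 2 and 1. Itgam, which encodes the myeloid adhesion receptor CD11b, had both marks over its promoter (chr7:128062390-128062639, plus strand, 6 CpG). Jun, an immediate early AP-1 factor, had acetylation without H3K4me1 within 1 kb of the window (chr4:95052223-95052472, minus strand, 15 CpG). Fcgr3, an Fc receptor of myeloid cells, had HSC H3K4me1 and no HPC acetylation (chr1:171059395-171059644, minus strand, 3 CpG). Otx2, a head and brain regulator silent in blood, also had H3K4me1 only (chr14:48665110-48665359, minus strand, 14 CpG), and this window overlapped a peak of a second K27 set of fetal HPC, whose titles say H3K27me3 and whose mark field says H3K27ac.
Itgam: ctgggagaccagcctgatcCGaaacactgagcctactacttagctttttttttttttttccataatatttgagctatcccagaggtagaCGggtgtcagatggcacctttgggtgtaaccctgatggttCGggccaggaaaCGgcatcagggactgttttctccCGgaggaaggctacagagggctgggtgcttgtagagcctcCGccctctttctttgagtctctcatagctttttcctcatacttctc
Jun: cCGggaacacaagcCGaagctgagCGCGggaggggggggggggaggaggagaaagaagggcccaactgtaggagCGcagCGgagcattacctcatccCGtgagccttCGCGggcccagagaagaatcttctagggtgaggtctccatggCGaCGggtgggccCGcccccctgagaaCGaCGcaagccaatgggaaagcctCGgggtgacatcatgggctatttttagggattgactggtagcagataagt
Fcgr3: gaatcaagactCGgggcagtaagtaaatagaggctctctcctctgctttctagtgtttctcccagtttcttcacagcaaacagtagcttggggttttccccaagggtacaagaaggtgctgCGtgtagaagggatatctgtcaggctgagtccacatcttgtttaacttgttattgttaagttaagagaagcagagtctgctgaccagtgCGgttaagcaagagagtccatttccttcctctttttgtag
Otx2: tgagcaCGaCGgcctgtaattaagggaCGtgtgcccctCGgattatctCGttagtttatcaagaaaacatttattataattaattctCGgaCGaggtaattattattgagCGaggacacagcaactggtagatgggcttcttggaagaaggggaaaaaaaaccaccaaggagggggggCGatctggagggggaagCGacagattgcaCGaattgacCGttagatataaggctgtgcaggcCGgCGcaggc

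Over all 21262 promoters the same contrast in CpG held. Acetylated promoters with H3K4me1 only in the flanks were the most frequent acetylated kind, with 6944 windows, a median of 19 CpG in the 250 bases (quartiles 13 and 25) and a GC box (GGGCGG) in 66.0%. Acetylated promoters with H3K4me1 over the window numbered 1518, with a median of 7 CpG (quartiles 4 and 12) and a GC box in 34.2%. Another 542 were acetylated with no H3K4me1 within 1 kb, with a median of 16 CpG. Promoters with H3K4me1 only numbered 1732 and had a median of 5 CpG, and 7491 promoters with neither mark had a median of 2. Unacetylated promoters were not all poor in CpG. Those with H3K4me1 only in the flanks numbered 3035, with a median of 14 CpG (quartiles 6 and 22) and a GC box in 57.9%. The letters TATAAA stood in 4.08% of acetylated promoters with flanking H3K4me1, 12.2% of those with both marks over the window and 20.4% of those with neither. The letters CCAAT, in contrast, were found in 32.7% to 37.4% of the acetylated kinds and in 35.4% of all promoters. The ETS core GGAAGT was found in 21.8% to 26.7% of the acetylated kinds and in 20.4% of all promoters. Among unacetylated promoters it was found in 14.9% with H3K4me1 only in the flanks, 21.4% with H3K4me1 only and 15.2% with neither mark. All 4 motifs were searched on either strand, GGGCGG was found in 42.6% and TATAAA in 11.6% of all promoters, and a match describes the letters only.

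Of the H3K27ac peaks, 75.1% (interval 74.7% to 75.5%) were marked in HSC. The share depended on peak strength: it was 94.3% among the strongest 10000 by −log10 p, then 86.5%, 73.7% and 64.9% in the next blocks of 10000, and 57.7% in the last 10858. Marked peaks were also wider, with a median of 667 bp against 330 bp, and had a higher fold over background, 3.60 against 2.93. The part of width and strength in the overlap was not tested. At the border of the rule, 427 marked peaks were covered over less than 10% of their length, while 19662 (51.5%) were covered whole. Of the unmarked peaks, 562 had HSC H3K4me1 within 100 bp, 3231 (25.5%) had it within 1 kb, and 4558 (36.0%) had none within 10 kb.

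Position relative to genes changed both the share and the shape of the overlap. Peaks within 1 kb of the start or end of a protein-coding gene were marked in 8973 of 10840 cases (82.8%), and peaks away from gene ends in 29225 of 40018 (73.0%), a difference (away minus near) of −9.75 points (−10.6 to −8.91). Strength moved with position: 5946 of the strongest 10000 peaks lay near gene ends. Within the same block of rank the order was not the same. Peaks away from gene ends were marked more often by 1.47 points (0.556 to 2.36) among the strongest 10000, by 14.2 points (12.4 to 16.1) in the second block and by 7.54 points (4.66 to 10.5) in the third. In the last 2 blocks the difference was 1.92 points (−1.52 to 5.47) and −0.389 points (−4.30 to 3.62), and both intervals include 0. By distance, peaks spanning a gene end were marked in 89.1%, those 1 bp to 1 kb away in 70.7%, those 1 to 5 kb away in 82.7% and those over 100 kb away in 58.9%.

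At gene ends the HSC H3K4me1 of the stronger H3K27ac peaks mostly lay beside the acetylation and not on top of it. The summit of the H3K27ac peak was inside an HSC H3K4me1 peak in 27.5% of peaks near gene ends, against 66.8% away from them, a difference of 39.3 points (38.3 to 40.2). By block of rank, strongest first, the shares near gene ends were 17.6%, 33.0%, 43.8%, 49.6% and 44.5%. Away from them the shares were 72.4%, 84.2%, 70.6%, 61.5% and 53.1%. In the blocks after the second, most marked peaks near gene ends had the summit inside. The counts were 474 of 725, 392 of 499 and 280 of 365. Near gene ends 5990 peaks (55.3%) overlapped H3K4me1 with the summit outside it, 1348 had it within 1 kb without overlap and 519 (4.79%) had none within 1 kb. Away from gene ends 26734 peaks had the summit inside, 2491 (6.22%) overlapped with the summit outside, and 8910 (22.3%) had no H3K4me1 within 1 kb. The plot of marked share by rank shows both readings of the overlap.

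**Figure D1:**
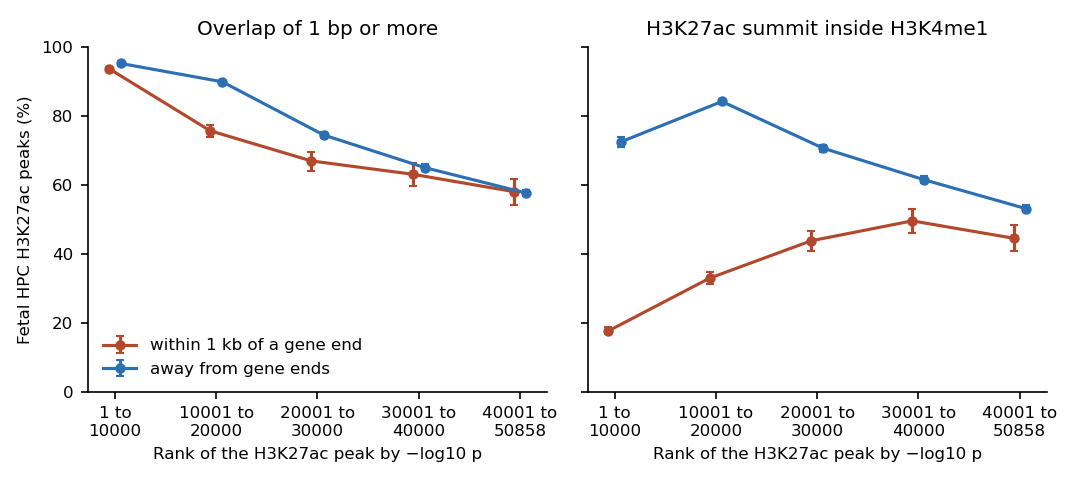
Share of fetal HPC H3K27ac peaks (%, y axis) that met a fetal HSC H3K4me1 peak, by rank of the H3K27ac peak (x axis), for peaks within 1 kb of a gene end and away from gene ends; points are shares and bars 95% Wilson intervals. By overlap of 1 bp or more (left) both positions fall from over 93% to about 58%, while by summit (right) the strongest peaks near gene ends stand at 17.6% and those away at 72.4%.

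Around the summits of the strongest 10000 H3K27ac peaks the H3K4me1 of HSC formed a valley at gene ends. Near gene ends 17.6% of summits were inside HSC H3K4me1, the share rising to 57.5% at 1200 bp on average over both sides and falling to 25.9% at 5000 bp. Away from gene ends 72.4% were inside at the summit, 73.6% at 700 bp and 34.9% at 5000 bp. The H3K4me1 of fetal HPC, the cells in which the acetylation was measured, had a curve of the same shape that lay above that of HSC at every distance plotted.

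**Figure D2:**
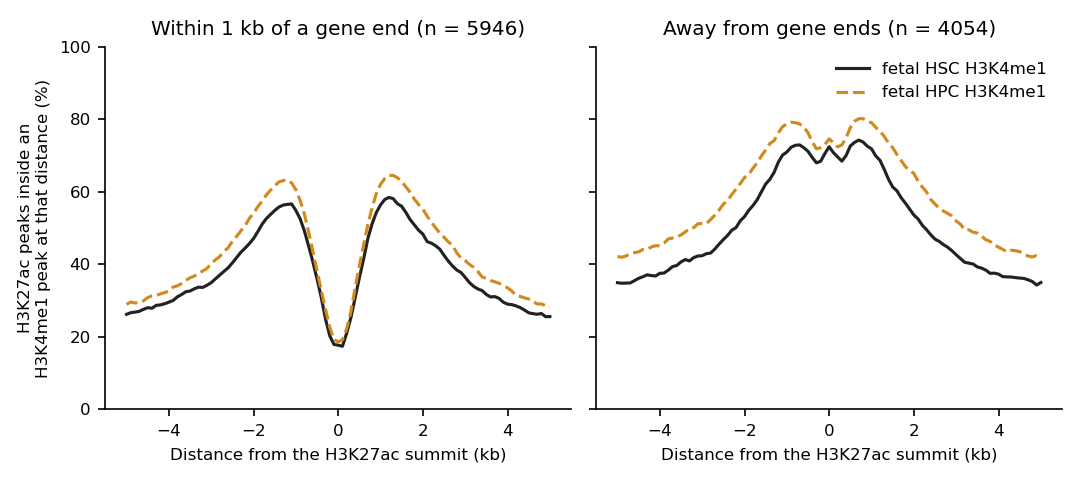
Share of the strongest 10000 fetal HPC H3K27ac peaks (%, y axis) with an H3K4me1 peak of fetal HSC (solid) or fetal HPC (dashed) at each distance from the H3K27ac summit (kb, x axis), near gene ends (left, 5946 peaks) and away (right, 4054 peaks). The HSC curve has its lowest value, near 17.6%, at summits of gene end peaks and reaches 57.5% beside them, while away from gene ends it is 72.4% at the summit and 73.6% at 700 bp.

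The overlap with other lists differed between marked and unmarked peaks, most of all away from gene ends. Away from gene ends, fetal HPC H3K4me1 overlapped 95.4% of marked and 11.95% of unmarked peaks, a difference of 83.4 points (82.8 to 84.1). Over all positions 36599 H3K27ac peaks (72.0%) carried H3K4me1 in both fetal cell types, 1599 (3.14%) in HSC alone, 1765 (3.47%) in HPC alone and 10895 (21.4%) in neither. Genes with the most peaks marked in HPC alone were Snx29 with 9, Phf14 with 7 and Trappc9 with 6, chosen after their values were seen.

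Adult HPC H3K27ac, a list from other animals, overlapped 66.5% of marked and 12.3% of unmarked peaks away from gene ends (difference 54.2 points, 53.3 to 55.0). Near gene ends it overlapped 96.4% and 85.3% (difference 11.2 points, 9.58 to 12.9). Adult HSC H3K4me1 overlapped 84.8% of marked and 7.60% of unmarked peaks away from gene ends, and 96.4% and 46.8% near them. Strength moved with these shares: among the strongest 10000 H3K27ac peaks away from gene ends, adult HPC H3K27ac overlapped 99.2% of 3860 marked and 95.9% of 194 unmarked peaks. In the second block of rank the shares were 85.4% and 40.5%, and in the last block 42.6% and 6.21%.

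**Figure D3:**
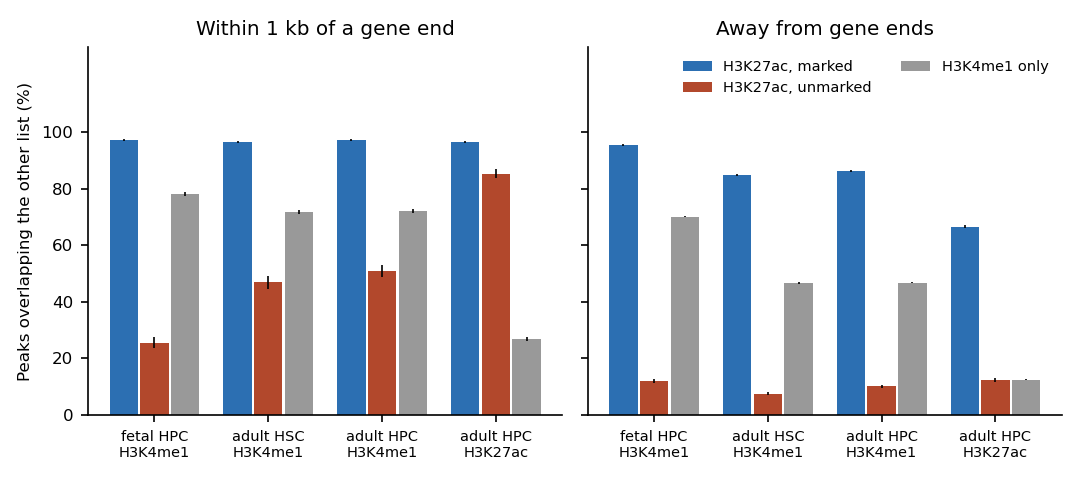
Share of peaks (%, y axis) that overlapped each of 4 other lists (x axis), for marked and unmarked fetal HPC H3K27ac peaks and H3K4me1-only peaks of fetal HSC, near gene ends (left) and away (right); bars are shares and lines 95% Wilson intervals. Away from gene ends unmarked peaks stand at 7.60% to 12.3% in every list, while near gene ends 85.3% of them overlap adult HPC H3K27ac.

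The strongest peaks of each class were described one by one. The strongest marked peak overall spanned an end of Eapp (chr12:54694976-54697199, fold 57.6), and the next one an end of Sirt4 (chr5:115488194-115490644, fold 55.4), a mitochondrial sirtuin. The strongest unmarked peak lay 45447 bp from Ubash3b, within 1 kb of the lncRNA gene 1700063D05Rik (chr9:41207139-41208222, fold 40.2, rank 15), and the nearest HSC H3K4me1 was 1374 bp away. Near gene ends the strongest unmarked peaks were at Ddx54, an RNA helicase (chr5:120612169-120614057, fold 32.3), where an HSC H3K4me1 peak abutted it without sharing a base, at the histone gene H3c6 (fold 31.0, gap 672 bp), at Uchl3, a ubiquitin hydrolase (fold 24.7, gap 274 bp) and at Csf2ra, the GM-CSF receptor alpha chain (fold 22.7, gap 2423 bp). All of these overlapped adult HPC H3K27ac. The histone genes and Ear10, another gene near a strong unmarked peak, belong to multigene families, where read mapping can be uncertain. The part of read mapping in these peaks, that at Csf2ra included, was not tested. Among the strongest 10000 peaks away from protein-coding gene ends, 7 of 194 unmarked (3.61%, 1.76% to 7.26%) and 23 of 3860 marked ones (0.596%, 0.397% to 0.893%) lay within 1 kb of a gene for a small nuclear RNA. Some of the 7 shared a locus, and the interval counts them as separate. The peaks chr3:96489048-96489427 and chr3:96489575-96490248 both lay at Gm22614. The peaks chr11:101641321-101641754 and chr11:101645920-101646433 both had Rdm1 as nearest coding gene. For tRNA genes the counts were 5 of 194 and 25 of 3860, and for miRNA and snoRNA genes 0 of 194 unmarked peaks. Over all ranks the order for small nuclear RNA genes was the other way, with 12 of 10793 unmarked (0.111%) and 56 of 29225 marked peaks (0.192%), and for tRNA genes it was 35 of 10793 (0.324%) and 36 of 29225 (0.123%).

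The X chromosome stood apart from the autosomes. Of its 569 H3K27ac peaks 255 were marked (44.8%), against 75.5% on autosomes, a difference of 30.6 points (26.5 to 34.7), and the 19 autosomes ranged from 68.5% (chromosome 15) to 81.8% (chromosome 11). Among the strongest 10000 peaks the X had 82 of 182 marked (45.1%) and the autosomes 95.3%, a difference of 50.2 points (42.9 to 57.3). On the X 32.8% of peaks near gene ends and 57.1% of those away were marked. H3K4me1 of fetal HPC overlapped 49.9% of the X peaks and adult HPC H3K27ac 86.1%, against 75.7% and 60.7% on autosomes. The adult H3K4me1 lists also overlapped fewer X peaks, with 50.3% for HPC and 45.5% for HSC, against 70.9% and 69.4% on autosomes. Of the 569 X peaks 287 lay near gene ends, against 10840 of all 50858 peaks. Only 3 of the strongest 10000 HSC H3K4me1 peaks were on the X, of 3356 X peaks in all.

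Seen from the stem cell, 38525 of 231188 H3K4me1 peaks (16.7%, 16.51% to 16.8%) were acetylated in HPC. The share was 71.9% among the strongest 10000 H3K4me1 peaks, 37.8% in the next block, which ended at rank 50000, 15.5% in the one ending at rank 100000 and 6.43% in the rest. Near gene ends 44.7% were acetylated and away 13.3%, a difference of 31.4 points (30.8 to 32.1), and near gene ends the share was higher in each of the 4 blocks of rank, by 18.1, 35.7, 31.4 and 19.9 points. Beyond 1 kb distance mattered less, with 14.8% at 1 to 5 kb and 11.4% over 100 kb from a gene end. H3K4me1-only peaks were narrower (median 381 bp against 1165 bp) and had a lower fold (2.74 against 4.10). Of those away from gene ends 70.1% overlapped H3K4me1 of fetal HPC, so most of this H3K4me1 was also called in progenitors, and 12.5% overlapped adult HPC H3K27ac. Near gene ends the values were 78.0% and 26.9%.

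The second K27 set of fetal HPC, whose mark the labels leave in conflict, overlapped 11.5% of H3K4me1-only peaks near gene ends and 0.223% of acetylated ones. Away from gene ends it overlapped 2.37% and 0.146%. Of the 50285 autosomal H3K27ac peaks of fetal HPC this set overlapped 245 (0.487%), and of the 569 on the X it overlapped 0. The set came from 2 libraries, and 7097 of its 54339 peaks had a −log10 q of at least 5. Which mark it holds was not tested.

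The strongest H3K4me1-only peaks near gene ends included one 819 bp from Cbx2, a Polycomb subunit (chr11:119032094-119034439, fold 12.6, rank 13), with the nearest HPC acetylation 6340 bp away, and one 820 bp from Ackr2, a chemokine scavenger receptor (fold 7.26). Away from gene ends the peak of rank 1 was 157 bp wide, with a fold of 1.43 and no gene within 100 kb (chr9:3023463-3023619). Its fold lay below the median of 2.74 for H3K4me1-only peaks away from gene ends, and no other list overlapped it. The part of read mapping in this peak was not tested. A peak 12536 bp from Fcgr3 (chr1:171078451-171078875, fold 6.64) and one inside Tbxas1, thromboxane synthase (chr6:39055816-39063395, fold 11.3), came next.

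Assigned to the nearest gene within 100 kb, 47249 H3K27ac peaks fell to 12635 of 21883 protein-coding genes (57.7%), and 76.6% of these assigned peaks were marked. All peaks were marked at 7151 of these genes, all were unmarked at 1556 and 3928 had both kinds, so that 5484 genes (25.1%) had an unmarked peak. A further 3691 genes (16.9%) had H3K4me1-only peaks and no acetylated peak. Among 1029 genes with 10 or more H3K27ac peaks the median share marked was 83.3% (quartiles 64.3% and 94.1%), 193 had every peak marked and 119 had under 50% marked.

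The genes with the most marked peaks included transcription factors and a chromatin remodelling subunit. Foxp1, a forkhead factor of B cell development, had 85 marked and 4 unmarked peaks, Etv6, an ETS repressor needed by adult stem cells, 81 and 1, and Arid1b, of the BAF complex, 80 and 1. Mecom, a stem cell transcription factor (chr3:29951296-30509759), had 68 and 1, beside 306 H3K4me1-only peaks. Of the marked peaks, 69 of 81 at Etv6 overlapped adult HPC H3K27ac, against 57 of 85 at Foxp1 and 23 of 68 at Mecom. The single unmarked Mecom peak had a fold of 3.35 and lay 608 bp from HSC H3K4me1. Genes with every peak marked included Cdk19 with 51 peaks, Xxylt1 with 45, Rere with 38 and the cytokine kinase Jak1 with 30.

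Among the genes with the most unmarked peaks, most had more unmarked than marked ones. Nbas had 4 marked and 23 unmarked peaks, Pcsk5, a proprotein convertase, 4 and 21, Mycbp2, a ubiquitin ligase, 5 and 21, Inpp4b, a phosphoinositide phosphatase, 11 and 21, and Herc2, another ubiquitin ligase, 2 and 20. Utrn, which encodes utrophin, was the exception, with 38 and 22. Unmarked folds ran from 2.34 to 4.16 at Nbas and from 2.26 to 4.21 at Herc2, and 0 of these 23 and 0 of these 20 peaks overlapped adult HPC H3K27ac. The stronger of the 2 marked Herc2 peaks, with a fold of 11.2, was at the gene start and did overlap it. The 119 genes under 50% marked had a median length of 277 kb, against 124 kb for the other 910. Their 1177 unmarked peaks lay inside gene bodies in 90.4%, against 81.7% of the 2510 unmarked peaks of the other 910 genes. Marked peaks lay there in 85.4% at the 119 genes and in 80.1% at the other 910. The unmarked peaks had a median fold of 2.85 at the 119 genes and 2.93 at the other 910. Of the unmarked peaks, 3.91% (2.94% to 5.17%) at the 119 genes overlapped adult HPC H3K27ac, against 17.1% (15.7% to 18.7%) at the other 910. Kmt2c, an H3K4 methyltransferase of enhancers, had 7 marked and 10 unmarked peaks, and its 2 strongest, with folds of 15.6 and 9.21 near the gene start, were marked, while no HSC H3K4me1 lay within 1 kb of its promoter window, which held 48 CpG.

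**Figure D4:**
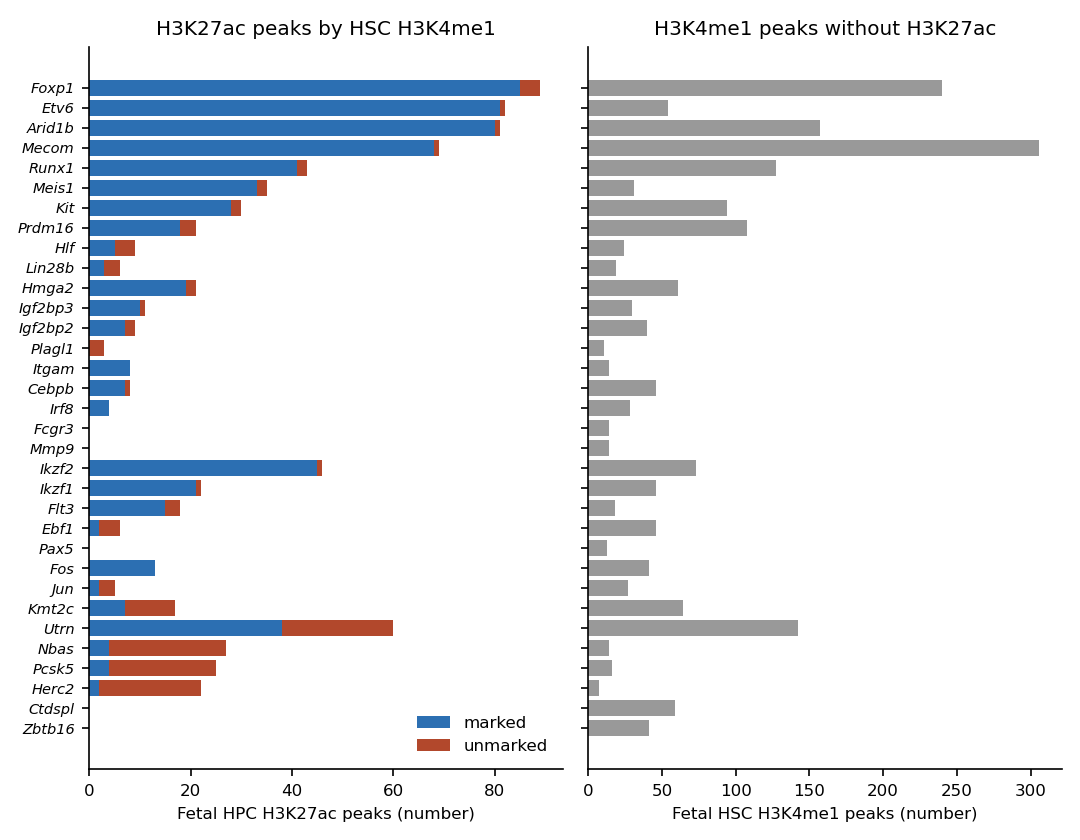
Number of fetal HPC H3K27ac peaks (left, x axis, marked and unmarked) and of fetal HSC H3K4me1 peaks without H3K27ac (right, x axis) assigned to named genes (y axis). Foxp1 has 85 marked and 4 unmarked peaks and Herc2 has 2 marked and 20 unmarked ones. Ctdspl and Zbtb16 have 59 and 41 H3K4me1-only peaks and 0 acetylated ones.

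In the list of HSC identity genes 27 of 30 members had an acetylated peak in HPC (90.0%, against 57.7% of all coding genes). Of their peaks 431 of 474 were marked (90.9%, 88.0% to 93.2%), against 76.6% over all assigned peaks. Etv6 and Mecom gave 81 and 68 of the marked peaks. Per gene the median share marked was 93.3%, below the 100% over all coding genes. Of the list's HSC H3K4me1 peaks 16.4% (14.7% to 18.1%) were acetylated, near the 17.1% over all coding genes. Runx1 had 41 marked and 2 unmarked peaks, Meis1, a homeobox cofactor, 33 and 2, and Kit, the stem cell factor receptor, 28 and 2. Hlf, a PAR bZIP factor of stem cells, was the mixed case, with 5 and 4. Its 5 marked peaks had folds of 2.52 to 4.35, and the peaks at and just inside the gene start, with folds of 6.36 and 5.94, were unmarked with HSC H3K4me1 394 and 1226 bp away. Prdm16, a stem cell maintenance factor, likewise had its 2 unmarked promoter peaks (folds 5.52 and 3.35) 1164 and 1437 bp from HSC H3K4me1, with 18 marked peaks in all. At Meis1 28 of 33 marked peaks overlapped adult HPC H3K27ac, at Runx1 35 of 41 and at Kit 20 of 28. Cdkn1c, the cell cycle inhibitor of quiescent stem cells, had 9 HSC H3K4me1 peaks and 0 acetylated ones in HPC.

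The fetal programme, genes active in fetal and silent in adult stem cells, had 11 of 12 members acetylated (91.7%, against 57.7% of all coding genes). In it 54 of 70 peaks were marked (77.1%, 66.0% to 85.4%), a share near the 76.6% over all coding genes. Lin28b, the RNA-binding protein that sets fetal identity (chr10:45376617-45486314), had 3 marked and 3 unmarked peaks. The marked ones had folds of 14.3, 4.02 and 3.93 and lay in the part of the gene toward its promoter, and the unmarked ones had folds of 3.18, 2.68 and 2.59 and lay 3152 to 8378 bp from HSC H3K4me1. None of these 6 overlapped adult HPC H3K27ac. Igf2bp3, which binds messenger RNA, had 10 marked and 1 unmarked peak, and 2 of the 10 overlapped adult HPC H3K27ac. Hmga2, a chromatin protein of fetal stem cells, had 19 and 2, with 12 of the 19 overlapping it. Plagl1, an imprinted zinc finger gene, had 3 unmarked peaks with folds of 2.59 to 2.76, all over 5 kb from HSC H3K4me1. Igf2, the imprinted growth factor, had 12 H3K4me1-only peaks and 0 acetylated ones.

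For the myeloid list 18 of 30 members had an acetylated peak (60.0%, against 57.7% of all coding genes), and 55 of 61 peaks were marked (90.2%, 80.2% to 95.4%). With both lists at their strongest 20000 peaks the myeloid share was 41.2%, below the 46.2% of all coding genes. Itgam had 8 marked peaks with folds of 2.59 to 6.28 and 0 unmarked ones, and 7 of the 8 overlapped adult HPC H3K27ac. Cebpb, a bZIP factor of emergency granulopoiesis, had 7 marked and 1 unmarked peak. Its marked peaks all lay away from gene ends, the strongest 84262 bp from the gene with a fold of 26.6, and the unmarked one was at the gene itself, with a fold of 5.69 and HSC H3K4me1 311 bp away. Irf8, a monocyte and dendritic cell factor, had 4 marked peaks with folds of 3.01 to 5.19, none of them in the gene. Another 9 of 30 members had H3K4me1 in HSC and no acetylation in HPC (30.0%, against 16.9% of coding genes), among them Fcgr3 and the gelatinase Mmp9 with 14 peaks each, the granulocyte factor Cebpe with 8 and the oxidase subunit Cybb with 4. Of the 265 H3K4me1-only peaks of the whole list 104 (39.2%) overlapped adult HPC H3K27ac, against 13.9% over all coding genes. They did so in 6 of 8 at Cebpe and 28 of 46 at Cebpb, and in 0 of 14 at Fcgr3 and 0 of 14 at Mmp9.

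In the erythroid list 88 of 102 peaks were marked (86.3%, 78.3% to 91.6%), against 76.6% over all coding genes. The globin regulator Bcl11a had 39 marked and 4 unmarked, the carbonic anhydrase gene Car2 13 and 0, and the erythropoietin receptor Epor 6 H3K4me1-only peaks and 0 acetylated ones. The list of megakaryocyte and mast cell genes had 64 of 73 marked (87.7%, 78.2% to 93.4%). The lymphoid priming list had 161 of 191 marked (84.3%, 78.5% to 88.8%). In it Ikzf2 had 45 and 1, Ikzf1 21 and 1, and the receptor gene Flt3 15 and 3, with its strongest peak (fold 20.7) 56.2% covered by HSC H3K4me1. Ebf1, the B lineage factor, had 2 marked and 4 unmarked peaks with folds of 2.34 to 3.18, beside 46 H3K4me1-only peaks. Pax5, the B cell commitment factor, had 13 H3K4me1-only peaks, 7 of which overlapped the second K27 set, and 0 acetylated ones. Over this list 23.7% of H3K4me1-only peaks overlapped adult HPC H3K27ac, against 13.9% over all coding genes.

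Housekeeping genes had 77 of 81 H3K27ac peaks marked (95.1%, 88.0% to 98.1%) and 31.3% of their HSC H3K4me1 peaks acetylated (26.6% to 36.4%), against 17.1% over all assigned H3K4me1 peaks. The interferon and antigen presentation list had 51 of 54 marked (94.4%, 84.9% to 98.1%), cell cycle genes 87 of 102 (85.3%) and immediate early and inflammatory genes 122 of 137 (89.1%), against 76.6% over all assigned peaks. By summit the first 3 of these lists lay below all coding genes (59.0%), with 44.4% for housekeeping, 57.4% for interferon and 58.8% for cell cycle genes. With both lists at their strongest 20000 peaks, interferon (38.9%) and cell cycle genes (28.6%) also lay below all coding genes (46.2%). Fos had 13 marked and 0 unmarked peaks, and its promoter peak, with a fold of 23.5, was covered by HSC H3K4me1 over 24.7% of its length. Jun had 2 marked and 3 unmarked, and its promoter peak (fold 15.7) missed the nearest HSC H3K4me1 by 369 bp. The antigen presentation regulators Nlrc5 and Ciita had 9 and 4 H3K4me1-only peaks and 0 acetylated ones. Writers and erasers of the 2 marks had 54 of 68 marked (79.4%, 68.4% to 87.3%), an interval that includes the 76.6% of all coding genes, and 14.5% of their H3K4me1 peaks were acetylated.

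**Figure D5:**
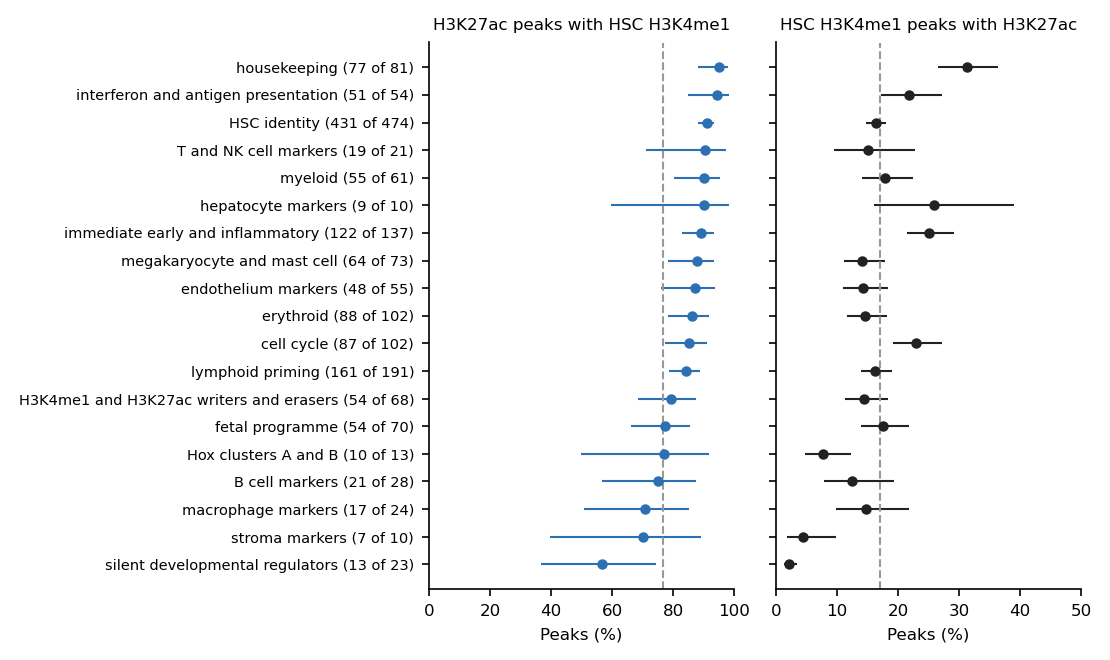
Share of fetal HPC H3K27ac peaks that were marked by HSC H3K4me1 (left, %) and of fetal HSC H3K4me1 peaks that were acetylated in HPC (right, %) for 19 gene lists (y axis, with marked of all H3K27ac peaks); points are shares, bars 95% Wilson intervals and dashed lines the values over all coding genes, 76.6% and 17.1%. Housekeeping genes lie highest in both panels and silent developmental regulators lowest.

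Silent developmental regulators, which blood does not use, had the reverse pattern. Of 55 members 40 had H3K4me1-only peaks and no acetylated peak (72.7%, against 16.9%), and 2.22% of their 765 HSC H3K4me1 peaks were acetylated (1.39% to 3.53%). Of their 748 H3K4me1-only peaks 433 (57.9%) overlapped the second K27 set, against 3.12% over all coding genes. Pax6, the eye and brain regulator, had 27 H3K4me1-only peaks, 17 of them in the second set, Lhx2, a forebrain regulator, had 26 with 21 there and Otx2 had 20 with 16 there. In the A and B clusters of Hox genes 12 of 21 members had H3K4me1-only peaks and no acetylation, and 31.3% of the 179 H3K4me1-only peaks were in the second set. Outside these lists the genes with the most H3K4me1-only peaks and 0 acetylated ones were Ctdspl, a phosphatase, with 59, Lrig1, a growth factor receptor inhibitor, with 43 and Zbtb16, the zinc finger factor PLZF, with 41. At Zbtb16 0 of 41 and at Lrig1 10 of 43 were in the second set.

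Markers of other cells gave a check of the labels. Acetylated peaks were assigned to 8 of 16 hepatocyte, 11 of 12 endothelial, 6 of 12 B cell, 7 of 14 T and NK cell, 10 of 14 macrophage and 4 of 12 stroma markers, against 57.7% of coding genes and 27 of 30 HSC identity genes. By this assignment within 100 kb the macrophage and endothelial counts lay above the share of all coding genes and the other 4 below it. Acetylated peaks in the gene body or within 1 kb of it were found at 12413 of 21883 coding genes. The same count gave 10 of 12 endothelial markers, and the other 5 lists lay below all coding genes. These were 6 of 14 macrophage, 6 of 16 hepatocyte, 6 of 12 B cell, 4 of 14 T and NK cell and 2 of 12 stroma markers. Members differed within each list: Adgre1, the macrophage antigen F4/80, had 6 acetylated peaks and the complement genes C1qa and C1qb had 0. Alb, the albumin gene, had 1 and Afp and Fga had 0, Klrb1c, an NK cell receptor, had 9 and Cd3e and Cd8a had 0, and Bank1, a B cell adaptor, had 18 and Ms4a1 had 0. Of the endothelial genes Pecam1 had 8 acetylated peaks and Kdr, a VEGF receptor, had 10, while the Kdr promoter window carried no acetylation and had HSC H3K4me1 only in its flanks. Other endothelial promoters differed from Kdr. Of 8 endothelial promoter windows 1 was acetylated with H3K4me1 over it and 3 were acetylated with H3K4me1 in the flanks. Another 3 had H3K4me1 in the flanks only, and 1 had neither mark. The part of other cells in the peaks of these genes was not tested.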

How the data were processed

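The data were 8 peak lists of ChIPmentation libraries, 1 per group, pooled over its libraries. Reads were aligned with Novoalign to mm10 (GRCm38) and peaks called with MACS2, per the submitters' processing notes. The sources used here do not state tool versions, the calling threshold, the peak filter or how the input was used. The authors computed the fold (a ratio of ChIP signal to background at the peak) with MACS2 before the lists were deposited, per the submitters' processing notes. The deposited −log10 p and −log10 q come from the same step. These values served to order, describe and filter peaks inside 1 list.

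Overlaps, distances and Wilson and Newcombe 95% intervals were computed in Python 3.11.15 with numpy 2.4.6 and pandas 2.3.3, and the functions were tested on simulated intervals. Gene ends came from 21883 RefSeq protein-coding genes, and a peak within 1 kb of either end was near a gene end. Peaks were assigned to the nearest gene within 100 kb. The 19 gene lists held 449 names, 1 of them unmatched. Members, lists and rules were chosen with earlier results of these data known. The naming rule took the 6 genes with most marked, unmarked or H3K4me1-only peaks, up to 4 per list, and the 4 strongest peaks of each class and position. Genes with every peak marked, Cdk19 to Jak1, and the markers in the last paragraph were named after their values were seen. Alternatives covered the overlap rule, thresholds, list length, merging and gene windows.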

Additional observations from a re-analysis of the deposited data

How the results depend on the processing

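No paired analysis was possible because each group is 1 pooled list, and for the same reason no replicate could be left out. The marked share of 75.1% became 60.1% when at least 50% of the peak had to be covered, 58.4% by summit, 81.5% within 1 kb, 46.1% with both lists at their strongest 20000, 54.3% with the H3K4me1 list at the length of the H3K27ac list and 72.4% with peaks within 1 kb merged. The difference in marked share, away minus near gene ends, of −9.75 points reversed to 34.6 by 50% coverage, 39.3 by summit, 13.8 at the strongest 20000 and 4.86 within blocks of rank, an alternative chosen after seeing the data. It was −17.5 within 1 kb, −6.45 at a −log10 q of at least 5, −3.80 with the H3K4me1 list shortened, −19.4 merged, −11.0 on autosomes and −10.6 with a window of 500 bp. The acetylated share of 16.7% became 8.62% by 50% coverage, 11.5% by summit, 26.99% within 1 kb, 20.3% at a −log10 q of at least 5, 43.4% at the strongest 20000, 44.3% with the H3K4me1 list shortened, 26.3% merged and 18.3% for peaks of at least 200 bp. The near-minus-away difference of 31.4 points stayed positive, at 16.7, 19.7, 35.6, 34.4, 37.0, 32.5, 36.1 and 32.3 in the same order, 27.1 and 21.3 with windows of 500 bp and 2.5 kb, 42.1 for gene starts alone and 25.01 within blocks of rank. The marked share of HSC identity genes lay above that of all coding genes in each of the 6 alternatives run for lists (73.4% to 93.0%) and that of silent developmental regulators in 0 of 6 (16.7% to 62.5%), while myeloid genes were above in 5 and housekeeping, interferon and cell cycle genes in 5, 4 and 4. The unknown read depth limits what an uncalled peak can show.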
